A study of Mus musculus with 6 samples.

Results

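The Fos and Jun genes encode the subunits of AP-1, a dimeric transcription factor of the basic leucine zipper (bZIP) class. The 7 genes named as members, Fos, Fosb, Fosl1, Fosl2, Jun, Junb and Jund, were chosen by symbol, and each had a single row among the 35406 rows of the authors' deposited table. All 7 were among the 23479 rows with test status OK, and 6 of them had a mean of at least 1 FPKM (fragments relative to transcript length and library size). The RNA came from the nucleus accumbens of male C57BL/6 mice aged 11 weeks. One group had been given cocaine at 20 mg/kg by repeated intraperitoneal injection for 1 week, the other had been given saline on the same schedule, and tissue was taken after 24 h without the drug. There were 3 pools per group and 5 mice per pool, or 15 mice per group. Mice of a cage shared their treatment, so cage and treatment cannot be told apart.

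Fos proteins do not pair with one another in a stable way and bind DNA as partners of Jun proteins, whereas Jun proteins also pair among themselves. Fos, Fosb and Junb are immediate early genes: synaptic activity and dopamine receptor signalling raise their transcripts within minutes, and the transcripts decay soon after. Fosb also gives rise by splicing to a shorter protein, ΔFosB, which is unusually stable and is known to accumulate in accumbens neurons under repeated cocaine, with JunD as a main partner. The comparison therefore addressed which AP-1 transcripts differed a day after the last of many doses, when an acute response would be over.

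The short form of Fosb arises from a segment of 140 bases that is either kept or removed within the last coding exon. In the GENCODE M21 annotation of GRCm38 it lies at chr7:19305007-19305146 on the minus strand, and 2 of the 7 annotated Fosb transcripts remove it. The sequences below show why a single value per gene cannot follow ΔFosB: the transcripts are otherwise alike there, and the deposited table has 1 row for the gene. Capitals mark the segment in the full-length transcript, and in the short transcript the codon that follows the junction, with 30 bases of flank on each side.
Fosb full-length: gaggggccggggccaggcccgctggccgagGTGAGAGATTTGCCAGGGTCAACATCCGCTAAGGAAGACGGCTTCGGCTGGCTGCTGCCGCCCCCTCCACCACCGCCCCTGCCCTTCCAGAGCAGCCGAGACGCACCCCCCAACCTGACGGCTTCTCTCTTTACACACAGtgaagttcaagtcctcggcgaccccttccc
Fosb short: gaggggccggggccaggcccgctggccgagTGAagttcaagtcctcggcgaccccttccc
The codon after the junction is the stop codon TGA. The annotated protein is 237 amino acids long in the short form, against 338 in the full-length form, a loss of 101 at the C-terminal end. The full-length transcript has 3782 bases in all.

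The promoters of Fos and Fosb are given next because these immediate early genes of the Fos subfamily had ratios of like size and opposite sign. Both are RefSeq windows on GRCm38.p6, running from 250 bases before the annotated start to 50 after it, with Fos at chr12:85473640-85473939 on the plus strand and Fosb at chr7:19309996-19310295 on the minus strand. Capitals mark TGACG, the core of the cyclic AMP response element that CREB binds, and the TATA motif TATAAA.
Fos promoter: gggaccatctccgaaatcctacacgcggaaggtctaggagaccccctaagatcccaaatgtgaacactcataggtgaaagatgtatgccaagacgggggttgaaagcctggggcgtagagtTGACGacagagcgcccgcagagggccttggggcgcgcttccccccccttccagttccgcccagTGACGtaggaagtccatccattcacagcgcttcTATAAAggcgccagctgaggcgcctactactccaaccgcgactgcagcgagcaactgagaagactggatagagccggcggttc
Fosb promoter: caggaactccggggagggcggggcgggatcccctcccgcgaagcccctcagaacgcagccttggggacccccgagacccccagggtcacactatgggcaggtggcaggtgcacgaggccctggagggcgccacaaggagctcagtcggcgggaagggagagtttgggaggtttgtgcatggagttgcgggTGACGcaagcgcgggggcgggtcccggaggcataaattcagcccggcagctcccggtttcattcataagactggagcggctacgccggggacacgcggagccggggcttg
Fos held TGACG with its first base 129 and 66 bases before the start, Fosb held it 60 bases before, and Junb held it 106 bases before. Of 32851 promoter windows of this length, 20.8% held TGACG on either strand. The full palindrome TGACGTCA, in which TGACG is contained, was in 1.79% of all windows and in 0 of the 6 member windows. The AP-1 site TGANTCA was in 7.81% of all windows and in 0 of the 6. The related TGACATCA was in 3.62% of all windows and, among the members, in Jun, with its first base 45 bases before the start. TATAAA was in 13.6% of all windows and in those of Fos and Junb. In Fos its first base lay 33 bases before the start, whereas in Junb it began at the start itself and not before it. The CArG box, which the serum response factor SRF binds, was in 1.63% of all windows and in 0 of the 6. These are matches of letters within the windows and say nothing about binding. The windows reach 250 bases before the start, so motifs further upstream were not looked for in any gene, Fos included. RefSeq's table had no window for Fosl1. The Jund window, counted among the 6, was placed 1210 bases before the start that GENCODE gives.

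The levels of the members followed the same order in both groups. Junb was the most abundant, at 33.3 FPKM after cocaine and 28.7 FPKM after saline. Jund followed at 30.1 FPKM after cocaine and 22.8 FPKM after saline, and Jun at 8.59 FPKM after cocaine and 8.32 FPKM after saline. Jun, the most strongly activating of the Jun proteins, was thus the least abundant of their transcripts. Fos stood at 5.87 FPKM after cocaine and 7.49 FPKM after saline. Fosl2, which encodes Fra-2, stood at 4.43 FPKM after cocaine and 3.81 FPKM after saline, and Fosb at 2.28 FPKM after cocaine and 1.79 FPKM after saline. Fosl1, which encodes Fra-1, was close to absent, at 0.022 FPKM after cocaine and 0.092 FPKM after saline. Ranked by mean FPKM among the rows with status OK, Junb lay at percentile 86.2, Jund at 84.2, Jun at 65.4, Fos at 61.5, Fosl2 at 54.1, Fosb at 45.5 and Fosl1 at 15.7.

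**Figure D1:**
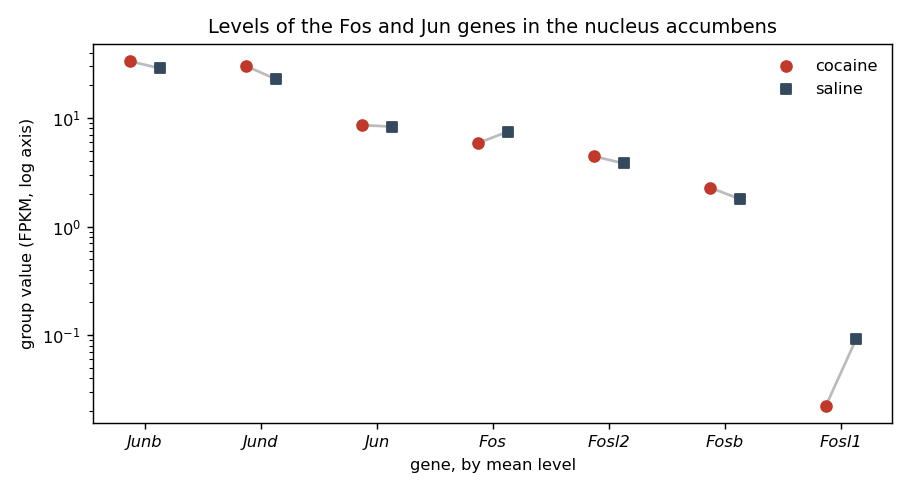
Group values in FPKM on a log axis for the 7 genes, ordered by mean level, with cocaine as a circle and saline as a square. Junb and Jund stand above 20 FPKM in both groups, Fosl1 stands below 0.1 FPKM, and Fos and Fosl1 are the genes whose cocaine value lies below the saline value.

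No error of a group's level was deposited. The precision of each ratio was taken as its implied standard error, found by dividing the size of the log2 ratio by the size of the test statistic in the authors' deposited table, and whether it holds the spread between pools is not stated. If that error is shared equally between the groups, the log2 levels of Junb and Jund differed by 0.15 ± 0.11 after cocaine (95% interval -0.064 to 0.36) and by 0.33 ± 0.11 after saline (interval 0.12 to 0.54). A change of that gap between the groups was not shown, since the log2 ratios of Jund and Junb differed by 0.19 ± 0.15 (Jund minus Junb, interval -0.11 to 0.48). The log2 levels of Jun and Fos differed by 0.55 ± 0.16 after cocaine (interval 0.24 to 0.86) and by 0.15 ± 0.16 after saline (interval -0.15 to 0.46). Here too the interval of the change held 0 (Jun minus Fos 0.40 ± 0.22, interval -0.035 to 0.83). All other neighbours in the order had intervals clear of 0 in both groups.

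Of the 7 members, 1 was called at a q under 0.05 in the authors' deposited table, Jund, which rose and whose locus is shared with an antisense gene. That is 14.3% of the members, against 11.9% of all rows with status OK, 6.10% called higher and 5.76% called lower, so the count of calls among the members is near the background. Of the 6 members at 1 FPKM or more, 5 had a higher value after cocaine, as did 55.1% of 14193 genes with a single symbol and a mean of at least 1 FPKM. The median log2 ratio of these 6 was 0.22, beside 0.04 over the 14193 genes.

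The Fos genes had no call. Fosb had a log2 ratio of 0.35 ± 0.18 (95% interval -0.0042 to 0.71), a value 27.6% higher after cocaine, with an unadjusted p of 0.0527 and q of 0.244 in the authors' deposited table. Fos had a ratio of the same size and the opposite sign, -0.35 ± 0.19 (interval -0.72 to 0.011), with an unadjusted p of 0.0572 and q of 0.256 in the authors' deposited table. Fosl2, whose product carries no strong activating domain, had 0.22 ± 0.14 (interval -0.059 to 0.49; q = 0.407 in the authors' deposited table). Fosl1 had -2.03 ± 1.23 at its very low level, an error so large that its interval ran from -4.44 to 0.38 (q = 0.358 in the authors' deposited table). The intervals of Fos, Fosb and Fosl2 each held 0, and each also held the size that would have been called. At its own implied error a gene needed a test statistic of at least 2.75 to be called, which was a log2 ratio of 0.50 for Fosb, 0.51 for Fos and 0.39 for Fosl2.

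The Jun genes had the smaller errors. Jund, which encodes the Jun protein least dependent on acute stimulation, had a log2 ratio of 0.40 ± 0.10 (interval 0.21 to 0.59), a value 1.32-fold higher after cocaine, with q = 0.00075 in the authors' deposited table. Junb, an immediate early gene whose product can restrain Jun, had 0.22 ± 0.11 (interval -0.0076 to 0.44), with an unadjusted p of 0.0582 and q of 0.260 in the authors' deposited table. Jun had 0.05 ± 0.12 (interval -0.19 to 0.28; q = 0.981 in the authors' deposited table). A log2 ratio of 0.32 would have been needed for a call of Junb and 0.33 for one of Jun, and Jun's interval ended below its size.

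**Figure D2:**
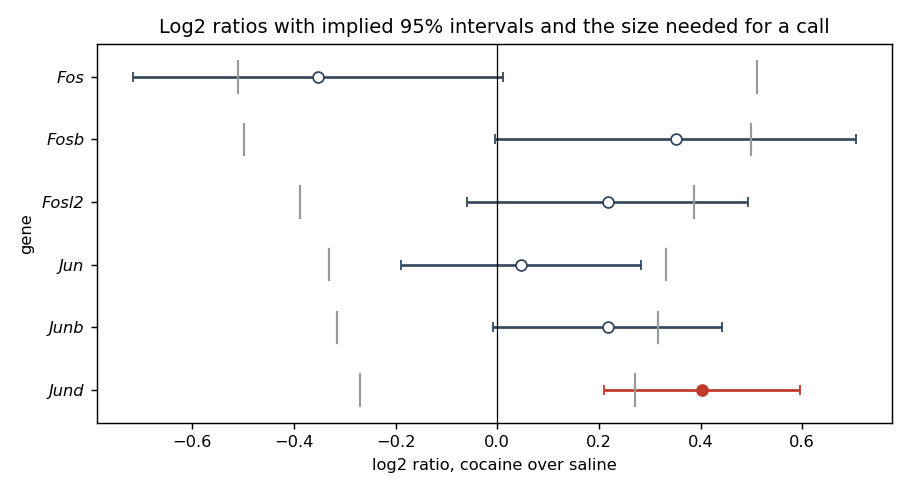
Log2 ratio of cocaine over saline for the 6 members at 1 FPKM or more, with implied 95% intervals; grey ticks mark the ratio that each gene would need for a q under 0.05, and the filled point is the called gene. Jund at 0.40 lies beyond its tick at 0.27, Fos lies left of 0, and Fosb, Fosl2 and Junb lie right of 0 short of their ticks.

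Fosb and Fos were set against each other directly. Their log2 ratios differed by 0.70 ± 0.26 (Fosb minus Fos), with a 95% interval of 0.20 to 1.21. In this and every other difference between genes, the implied errors were combined as if independent, although the genes were measured in the same pools. Expressed as a ratio of levels, there were 0.389 units of Fosb per unit of Fos after cocaine and 0.239 after saline. Over all 21 pairs of members, 6 had an interval clear of 0, without adjustment for the number of pairs. Fos was the lower gene in 4 of them, against Fosb, Fosl2, Junb and Jund. Jund was the higher gene in 3, against Fos, Fosl1 and Jun (Jund minus Jun 0.36 ± 0.16, interval 0.052 to 0.66). The interval against Fosl1, a gene close to absent, ran from 0.016 to 4.85 and so barely cleared 0. These 3 pairs use the Jund row alone. With the FPKM of its antisense gene Gm11175 added, the difference was 0.15 against Jun, 0.55 against Fos and 2.23 against Fosl1. That alternative has no error of its own, and as a plain sum of FPKM it does not pool the fragments of the rows. Jund minus Fosb was 0.05 ± 0.21 (interval -0.35 to 0.46), an interval that leaves room for a difference in either direction.

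Because FPKM is scaled to length, the members could be summed. The 4 Fos genes summed to 12.6 FPKM after cocaine and 13.2 FPKM after saline, and the 3 Jun genes to 72.0 FPKM after cocaine and 59.8 FPKM after saline. The ratio of the Jun sum to the Fos sum was 5.71 after cocaine and 4.53 after saline, with the Jund row included as deposited. Within the Fos sum, Fos itself held 46.5% after cocaine and 56.8% after saline, Fosl2 35.2% after cocaine and 28.9% after saline, and Fosb 18.1% after cocaine and 13.6% after saline. Within the Jun sum, Jund held 41.8% after cocaine and 38.1% after saline, Junb 46.3% after cocaine and 48.0% after saline, and Jun 11.9% after cocaine and 13.9% after saline. These shares have no test, and the lower Fos sum after cocaine rests on Fos: without it the log2 ratio of the sum was 0.24, against -0.06 with it. In bulk tissue, fewer cells of a type and less RNA per cell cannot be told apart.

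**Figure D3:**
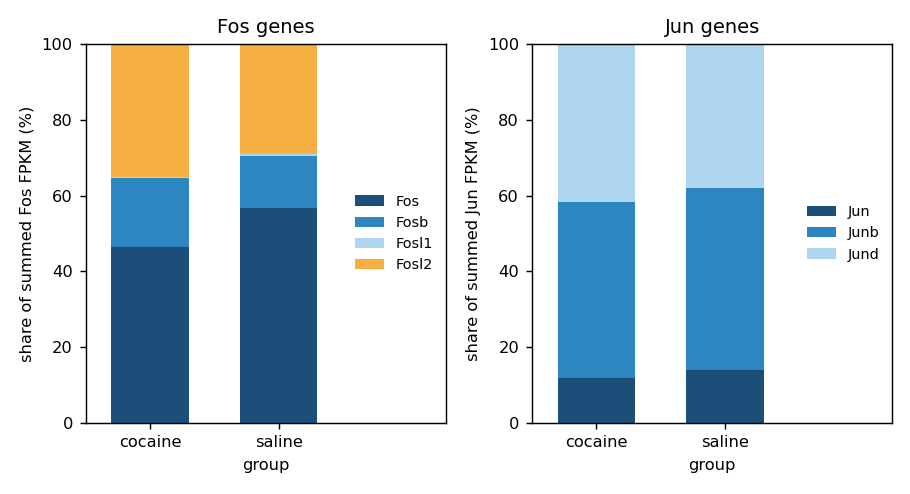
Share of each gene in the summed FPKM of the Fos genes (left) and of the Jun genes (right), with the cocaine bar left of the saline bar. Fos takes 46.5% of the Fos sum after cocaine and 56.8% after saline, while Junb and Jund together take 88.1% of the Jun sum after cocaine and 86.1% after saline.

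The call of Jund rests on a row that shares its locus. In the mouse build that the submitters' processing notes name as mm9 and NCBIM37, Jund lies at 73221638 to 73224515 on chromosome 8, and the same interval is printed for Gm11175. GENCODE M21 annotates Gm11175 as an antisense gene on the minus strand, opposite the single exon of Jund. Of its 877 exon bases, 100% lie within the Jund exon, and they cover 52.6% of the 1668 bases that GENCODE gives that exon. The deposited Jund locus is longer, at 2878 bases, so the share covered under the authors' annotation may differ. Gm11175 was listed at 72.9 FPKM after cocaine and 67.2 FPKM after saline, above Jund in both groups, with a log2 ratio of 0.12 ± 0.13 (q = 0.746 in the authors' deposited table). Whether the library kept strand is not given in the sources used here. Without strand, reads from the bases that both genes' exons cover cannot be told apart by position, while the rest of the Jund exon has no Gm11175 exon over it. The plain sum of both rows was 103.0 FPKM after cocaine and 89.9 FPKM after saline, a log2 ratio of 0.20. FPKM is per length and the exons differ in length, so this sum does not pool the fragments of the rows. It gives the shorter Gm11175 more weight than its fragments would. How much the division of fragments between these rows bears on the call was not tested.

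**Figure D4:**
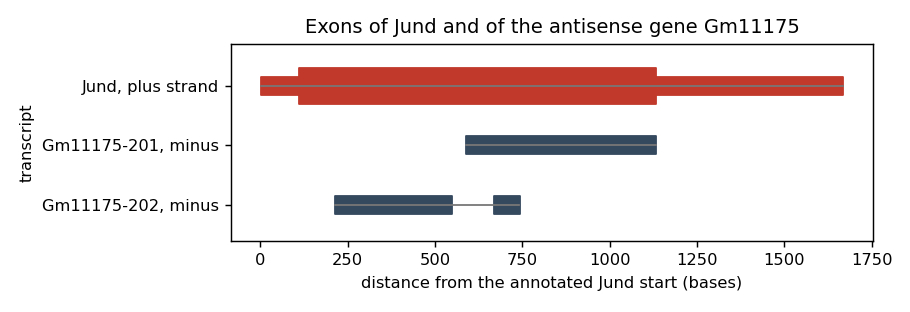
Exons of Jund (plus strand, coding part drawn taller) and of 2 Gm11175 transcripts (minus strand), by distance in bases from the Jund start in GENCODE M21. Every Gm11175 exon lies under the Jund exon, between bases 214 and 1132, and the upper Gm11175 transcript ends at the same base as the Jund coding part.

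Jun and Fosl1 shared their loci too. The locus of Jun (chromosome 4, 94715725 to 94834009) spans 118285 bases and holds 2 other rows, of which one was at 0 in both groups and the other at 0.979 FPKM after cocaine and 1.92 FPKM after saline. Fosl1 (chromosome 19, 5447703 to 5457549) shared its locus with Ccdc85b, which rose to 17.0 FPKM after cocaine, against 11.5 FPKM after saline (q = 8.39e-05 in the authors' deposited table). The other 4 members were alone in theirs: Fos on chromosome 12 (86814840 to 86818223), Fosb on chromosome 7 (19888070 to 19895394), Fosl2 on chromosome 5 (32438845 to 32460204) and Junb on chromosome 8 (87500811 to 87502617).

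Among 15 fixed bZIP genes that pair with or resemble AP-1 subunits, 13 were tested, 1 rose and 1 fell, and the median log2 ratio of those at 1 FPKM or more was 0.08. For this and the lists that follow, the share called among the 14193 genes at 1 FPKM or more was 14.6%, 7.46% higher and 7.18% lower. Jdp2, whose product dimerises with Jun proteins and represses transcription at AP-1 sites, rose to 8.07 FPKM after cocaine, against 5.23 FPKM after saline (log2 ratio 0.63 ± 0.16, q = 0.0019 in the authors' deposited table). Atf2, a Jun partner that directs dimers to sites of the cyclic AMP type, fell to 33.8 FPKM after cocaine, against 40.4 FPKM after saline (-0.26 ± 0.08, q = 0.012 in the authors' deposited table). The abundant Nfe2l1 (-0.06) and Atf4 (0.06) were not called. Mafg had no row of its own, and Batf2 was a failed estimate listed at 0.

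Of 15 fixed kinases of the cascades that activate AP-1, 14 were tested, 2 rose and 1 fell, and the median log2 ratio was 0.02, or -0.017 when centred on all genes. Mapk3, which encodes ERK1, fell to 204.5 FPKM after cocaine, against 246.5 FPKM after saline (-0.27 ± 0.08). Map2k4, which activates the Jun kinases, rose to 43.2 FPKM after cocaine, against 35.3 FPKM after saline (0.29 ± 0.10). The Jun kinase genes Mapk8 (0.02), Mapk9 (-0.11) and Mapk10 (0.02) and the ERK kinase gene Map2k1 (0.06) were not called.

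Factors that act on the promoters of Fos and its relatives were lower or not called. Of 12 fixed genes 11 were tested, and 5 were called, all lower (45.5%), with a median log2 ratio of -0.24. Creb1, which encodes CREB, fell to 14.4 FPKM after cocaine, against 22.1 FPKM after saline (-0.61 ± 0.17). Its acetyltransferase coactivators Crebbp (-0.50 ± 0.10) and Ep300 (-0.51 ± 0.11) and the SRF coactivators Mkl1 (-0.34 ± 0.09) and Mkl2 (-0.40 ± 0.13) fell as well. Srf itself, at 28.5 FPKM after cocaine and 27.7 FPKM after saline, was not called (0.04 ± 0.11), nor was the kinase gene Camk4 (-0.24 ± 0.10). Elk1 had no row of its own. Mkl1, Mkl2, Ep300, Camk4 and Srf shared their loci with other rows, Srf in a locus of 20 rows.

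**Figure D5:**
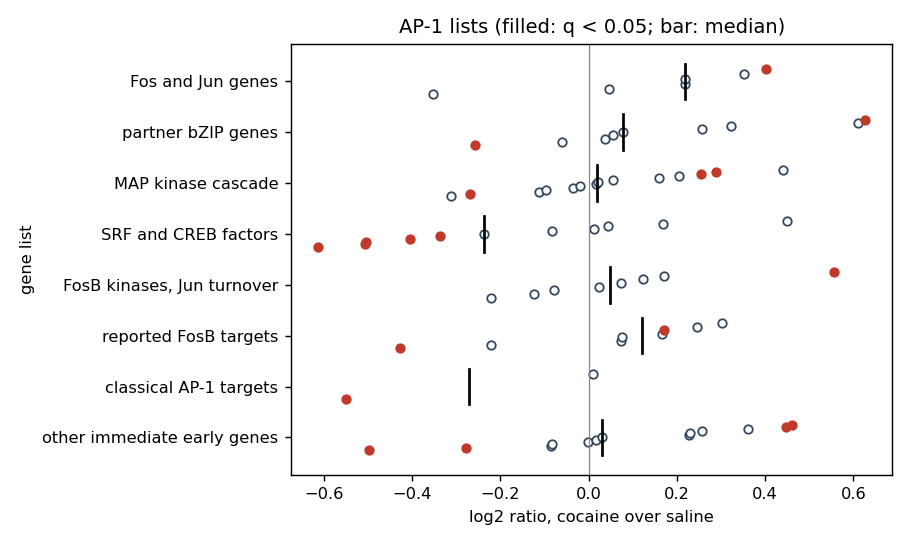
Log2 ratio of cocaine over saline for each gene at a mean of at least 1 FPKM in the 8 fixed lists, with filled points for a q under 0.05 and a bar at each list's median. The SRF and CREB factors have their median at -0.24 and 5 filled points, all left of 0, while the Fos and Jun genes have their median at 0.22 and 1 filled point.

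Of 8 genes for kinases that act on FosB and for enzymes of Jun turnover, 1 was called: Rfwd2, which encodes the ubiquitin ligase COP1 that marks Jun for degradation, rose to 4.30 FPKM after cocaine, against 2.92 FPKM after saline (0.56 ± 0.17, in a locus shared with other rows). Camk2a (-0.22 ± 0.17) and Csnk2b (-0.12 ± 0.12) were not called, and the median log2 ratio was 0.05, or -0.028 at a minimum of 5 FPKM. Of 8 genes reported elsewhere as targets of FosB or ΔFosB in the accumbens, 1 rose and 1 fell, with a median log2 ratio of 0.12. The list was not divided by the direction reported for each gene, so its median is no measure of FosB or ΔFosB activity. The histone methyltransferase gene Ehmt2 rose to 209.9 FPKM after cocaine, against 186.5 FPKM after saline (0.17 ± 0.05), and the deacetylase gene Sirt2 fell to 86.7 FPKM after cocaine, against 116.5 FPKM after saline (-0.43 ± 0.08). Pdyn (0.25 ± 0.09, q = 0.0529 in the authors' deposited table) and Camk2a were the most abundant uncalled genes of that list. Of 8 classical AP-1 target genes outside the brain, 7 were tested but only 2 reached 1 FPKM. Ccnd1, a cell cycle gene, fell to 7.41 FPKM after cocaine, against 10.8 FPKM after saline (-0.55 ± 0.17), and Vegfa (0.01 ± 0.09) and Plau (0.508 FPKM after cocaine, 0.369 FPKM after saline) were not called. Map2k1, Map2k4, Sirt2 and Ccnd1 each shared a locus with another row.

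Other immediate early genes went both ways: of 14, 2 rose, Egr4 (0.46 ± 0.14) and Nr4a3 (0.45 ± 0.13), and 2 fell, Egr3 (-0.50 ± 0.10) and Arc (-0.28 ± 0.08), with a median log2 ratio of 0.03, or -0.0056 when centred on all genes. The abundant Egr1 (0.02 ± 0.09) and Homer1 (0.23 ± 0.09) were not called. With 2 group values per gene, likeness could be measured only as the difference between log2 ratios, over 22 partner and immediate early genes. Arc and Atf2 were nearest to Fos, within 0.08 and 0.10. Ier2 and Mafk were nearest to Fosb, within 0.01 and 0.03, and Ier2 and Nr4a3 were nearest to Jund, within 0.04 and 0.05. Each of these distances was smaller than the implied error of its member (0.19 for Fos, 0.18 for Fosb, 0.10 for Jund). Which gene is nearest is therefore not resolved. Ier2 itself, at a mean of 1.36 FPKM, had an implied error of 0.30.

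The tissue label was checked against markers of medium spiny neurons, the main neurons of the accumbens. Penk (1943 FPKM after cocaine, 1737 FPKM after saline), Ppp1r1b (896.1 after cocaine, 756.0 after saline), Drd2 and Drd1a were all present. Of 39 markers of 6 cell types, 0 were at 0 in both groups, 4 rose and 5 fell (23.1%). The 6 choroid plexus markers summed to 16.4 FPKM after cocaine and 100.5 FPKM after saline, of which Ttr, the one called, was 9.46 after cocaine and 93.4 after saline. The difference in that sum thus rests on Ttr. The other choroid plexus markers went both ways without a call. Clic6 (5.49 FPKM after cocaine, 4.22 after saline) and Kcne2 were higher after cocaine, and Folr1, Kl and Kcnj13 were lower. The 6 astrocyte markers summed to 464.5 FPKM after cocaine and 639.0 after saline, of which the glutamate transporter gene Slc1a2, the one called, was 258.4 after cocaine and 426.0 after saline. The other 5 astrocyte markers summed to 206.1 FPKM after cocaine and 213.0 after saline. The 5 endothelial markers summed to 41.5 FPKM after cocaine and 35.7 after saline, with Slco1a4 called higher (log2 ratio 0.80 ± 0.19) and Pecam1 called lower (-0.61 ± 0.20). The sums of the neuronal, oligodendrocyte and microglial markers were 1.11, 0.970 and 0.974 times as high after cocaine as after saline; 2 neuronal markers rose and 1 fell, 1 oligodendrocyte marker fell and 1 microglial marker rose. The part of these differences in the values of the Fos and Jun genes was not tested.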

How the data were processed

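RNA sequencing of 3 cocaine and 3 saline pools was used. Per the submitters' processing notes, CASAVA, TopHat and Cuffdiff were used with the builds mm9 and NCBIM37; their versions and settings, strandedness and fragment numbers are not given, so the depth is unknown. Per the file headers, the authors' deposited table has the layout of a Cuffdiff gene test, from which the FPKM unit is taken: 1 FPKM value per group as deposited, with the authors' p-value. The deposited q-value (which can pass 1) and the deposited test statistic were each handled as a score. The statistic ran opposite to the log2 ratio in 100% of comparable rows, so its size was used.

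Log2 ratios are cocaine over saline, without a pseudocount. The planned limma fit on pool values could not be run, and the authors' test across all genes (q under 0.05, status OK) was used instead. Intervals are 1.96 implied errors. For a difference between genes, the implied errors of both were combined as the root of their summed squares. That takes the errors as independent, which could not be checked without values per pool. The code for the adjustment and the implied errors was run on simulated statistics drawn from those same errors. That checks the arithmetic and cannot show whether the errors hold for the pools. Starts were written 1-based. Python 3.11.15, pandas 2.3.3 and numpy 2.4.6 were used.

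The members and lists were chosen with earlier results of these data known. By rule, named list genes were up to 4 called members with the largest ratios and the 2 most abundant uncalled. Mapk8, Mapk9, Mkl1, Elk1, Mafg, Batf2, Ccdc85b, Mast1, Prdx2 and Lsm4 were added after their values were seen. So were the markers Slc1a2, Slco1a4, Pecam1 and those of choroid plexus other than Ttr. A called kinase gene that this rule names is counted in its list but not reported here. Alternatives concerned the q threshold, the adjustment, the FPKM minimum, a pseudocount, centring and row choice.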

Additional observations from a re-analysis of the deposited data

How the results depend on the processing

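Of 79 alternatives to 38 results, 63 stayed within the limit set for their result. Jund was the called member at a q under 0.01, at a q under 0.1 and with both recomputed Benjamini-Hochberg adjustments. With members alone in their locus, a restriction chosen after seeing the data, 0 of them were called by the authors' Cuffdiff test, and 0 of these had an unadjusted p under 0.05. Only 4 members met this restriction. It leaves out Jund, the one called member, by definition, so the count of 0 calls was fixed in advance. Over the whole table the restriction left 1183 called among 12029 rows with status OK, against 2784 called among 23479 without it. With the antisense row added as a plain sum of FPKM, also chosen after seeing the data, the log2 ratio of Jund was 0.20, and Jund minus Jun became 0.15. The summed Fos genes had a log2 ratio of -0.06, which became 0.24 without Fos, its most abundant gene. The Fos share of all AP-1 FPKM differed by -3.18 percentage points (cocaine minus saline), and by -0.65 without Fos and Junb. List medians near 0 changed sign: centring on the median of all genes gave -0.017 for the MAP kinases and -0.0056 for other immediate early genes, and a minimum of 5 FPKM gave -0.028 for the genes of FosB kinases and Jun turnover. With a pseudocount of 1, Fosl1 had a log2 ratio of -0.09. At a q under 0.01, calls fell to 1 of 2 among partner genes and 2 of 3 among MAP kinases (Map2k4 was lost). Among SRF and CREB factors 4 of 5 remained (Mkl2 was lost). Among other immediate early genes 2 of 4 remained, Egr3 and Arc, both lower, while the higher Egr4 and Nr4a3 were lost. Calls fell to 1 of 2 among reported FosB targets and 0 of 1 in the lists of Jun turnover and classical targets. No paired analysis was possible because the table holds no values per pool; for the same reason no pool could be left out. The cause of these changes was not tested. Unknown depth limits what can be said of Fosl1.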

Other observations

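Fos, Jdp2 and Batf, 3 genes of the bZIP class, lie next to one another on chromosome 12, and their values went different ways. Jdp2 begins 122.1 kb beyond the end of Fos, and Batf begins 209.4 kb beyond it. Jdp2 rose (log2 ratio 0.63), Fos had -0.35 without a call, and Batf was at 0.197 FPKM after cocaine and 0.0714 FPKM after saline.

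Within 50 kb of the members' loci, 24 further rows with status OK and a mean of at least 1 FPKM were found, and 1 was called. Among the 14193 genes with a single symbol at that level, 14.6% were called. It was Mast1 near Junb, a kinase gene, which fell to 6.60 FPKM after cocaine, against 8.60 FPKM after saline. The more abundant Prdx2 near Junb (0.16 ± 0.09) and Lsm4 near Jund (0.11 ± 0.11) were not called.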
